A study of Mus musculus with 6 samples.

Results

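The replication-dependent histone genes of the mouse were described in CD4+CD25+ T cells sorted by surface ILT3, a surface receptor with inhibitory signalling motifs that is encoded by Lilrb4. Members were all genes of the deposited tables whose name begins with Hist1h, Hist2h, Hist3h or Hist4h. The rule uses names only and found 70 of 38924 genes: 6 genes of linker histone H1, 20 of H2A, 19 of H2B, 12 of H3 and 13 of H4. The series holds 3 samples of ILT3+ and 3 of ILT3- CD4+CD25+ T cells. All came from wild-type, untreated, syngeneic male and female mice of 10 to 16 weeks, from spleen and mesenteric lymph nodes. Magnetic columns first enriched CD25+CD4+ T cells, a fraction rich in regulatory T cells, and a flow sorter divided these by ILT3. Whether a sample is 1 animal or a pool is not stated, so a p-value here sets a difference against a spread that can be technical.

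Core histones H2A, H2B, H3 and H4 form the protein spool of the nucleosome, and H1 binds the DNA between nucleosomes. Most of their mRNA is made in S phase, when new DNA must be packed, and it is degraded when replication ends. The genes lie in clusters, mostly lack introns, and are switched on together by the coactivator NPAT. Their mRNAs end in a conserved stem-loop instead of a poly(A) tail: the stem-loop binding protein SLBP holds the loop, and the U7 particle directs the cut behind it. Variant histones such as H2A.Z and H3.3 come from ordinary polyadenylated mRNAs outside S phase as well. The cDNA of these libraries was made from 1 ng of total RNA with SmartSeq V2 chemistry, which primes on poly(A). Read levels of histone genes can therefore depend on which of their RNAs carry A-rich stretches, which was not tested here.

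The members lie on chromosome 13 (56 genes), chromosome 3 (10), chromosome 11 (3) and chromosome 6 (1). In the deposited gene models 61 have a single exon, 8 have several and 1, the pseudogene Hist3h2bb-ps, has none. The 16-base pattern of the histone stem-loop, a pair of stem arms around a short loop, was searched on the sense strand of GENCODE M21 transcripts. It was found in 46 of the 70 members (65.7%), against 86 of 55341 genes in all (0.155%). Sequence beyond the annotated 3′ ends was not searched, so a member without a match can still have the stem-loop. Some annotated transcripts without a match were short, such as 381 bases for Hist1h2bl and 312 for Hist1h4k. It lay inside the deposited gene model in 40. The H4 genes held forms found in no other type, and the other types shared their commonest form. For each type 1 stretch of up to 30 bases is shown, with another form for H2A and for H4. The form shown for Hist2h2ac was found in 1 member only. The stretches run 5′ to 3′ on the gene's strand, with the 16 bases of the stem-loop in capitals.
Hist1h1c (H1): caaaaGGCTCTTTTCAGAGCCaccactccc
Hist2h2ac (H2A): aaaaaGGCTCTTTTTAGAGCCaccaaatct
Hist1h2ap (H2A): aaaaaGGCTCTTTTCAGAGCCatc
Hist1h2bg (H2B): ccaaaGGCTCTTTTCAGAGCCacccatact
Hist1h3e (H3): aaaacGGCTCTTTTAAGAGCCacctccatt
Hist1h4d (H4): ccaaaGGCCCTTTTCAGGGCCactaccttc
Hist1h4i (H4): ttaaaGGCCCTTTTTAGGGCCaccacaaaa
On GRCm38 the capitals lie at chr13:23739512-23739527 (+) in Hist1h1c, chr3:96220418-96220433 (-) in Hist2h2ac, chr13:21833029-21833044 (-) in Hist1h2ap, chr13:23571843-23571858 (+) in Hist1h2bg, chr13:23561903-23561918 (-) in Hist1h3e, chr13:23581950-23581965 (+) in Hist1h4d and chr13:22040966-22040981 (-) in Hist1h4i. All lie behind the stop codon, in the 3′ untranslated region of a protein-coding transcript. The form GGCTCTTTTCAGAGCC was in 26 members, of types H1 (3), H2A (10), H2B (8) and H3 (5), and in 0 H4 genes. The form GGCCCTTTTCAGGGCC was in 7 members, all of them H4. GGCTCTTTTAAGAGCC was in 6 members, 3 of them H3.

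Promoters of 300 bases (RefSeq, GRCm38.p6) matched 62 members. CCAAT, searched on both strands, was in 85.5% of them against 41.06% of the promoters of 27025 RefSeq genes, and in 25.0% of H4 promoters against 100% of those of each other type. TATAAA was in 56.5%, against 15.67%. The octamer ATTTGCAT is the recognition element of the Oct-1 factor encoded by Pou2f1. It was in 7 of 18 H2A and 7 of 16 H2B promoters, and in 1.97% of all. Of the H1, H3 and H4 promoters matched, 0 held it. H2A and H2B genes that lie head to head can share this DNA, so 1 site can count for both genes. The octamer was found for both genes of the pairs Hist1h2ah and Hist1h2bk, Hist1h2ae and Hist1h2bg, and Hist1h2aa and Hist1h2ba. The 250 bases before the start are shown for 1 H2A and 1 H2B gene whose divergent partner lies just upstream and whose levels are compared further on. The capitals mark the 3 motifs on either strand.
Hist2h2ac promoter: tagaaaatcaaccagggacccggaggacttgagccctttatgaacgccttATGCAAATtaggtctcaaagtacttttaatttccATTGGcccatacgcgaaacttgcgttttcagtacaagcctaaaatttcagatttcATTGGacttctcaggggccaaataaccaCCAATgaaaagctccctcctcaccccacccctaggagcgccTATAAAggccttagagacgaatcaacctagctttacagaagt
Hist1h2bg promoter: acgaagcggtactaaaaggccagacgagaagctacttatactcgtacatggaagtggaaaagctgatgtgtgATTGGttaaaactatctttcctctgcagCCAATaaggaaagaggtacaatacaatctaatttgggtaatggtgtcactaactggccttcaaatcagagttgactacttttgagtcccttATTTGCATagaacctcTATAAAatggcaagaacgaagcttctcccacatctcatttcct
They lie at chr3:96220881-96221130 (-) and chr13:23571150-23571399 (+).

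Depth was 6695391 to 10242344 exon reads per sample, and 3 reads correspond to 0.288 to 0.499 CPM. CPM are exon reads scaled to a common library total with TMM factors, which sets the libraries to a common level by the bulk of their genes. The sort marker Lilrb4, which encodes ILT3, had 0.499, 1.51 and 2.01 CPM in ILT3- samples 1, 2 and 3 and 150, 167 and 248 CPM in ILT3+ samples 1, 2 and 3. The T cell markers Cd3e, Cd3d, Cd3g, Cd4, Foxp3, Il2ra and Trac together had 3490.2 to 5890.9 CPM. The samples numbered 1 stood apart from the other 4 in both groups on the second principal component of all genes (31.9% of the variance). Results are therefore also given without them. In ILT3+ sample 1, monocyte and macrophage markers summed to 865 CPM against 10.7 to 29.4 in the other 5, and erythroid markers to 272 CPM, against 56.4 and 62.8 in the other ILT3+ and 0.755 to 6.99 in the ILT3- samples. The deposited counts do not tell fewer cells of a type from less RNA per cell.

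Replication-dependent histone genes took a small share of the reads. Of the 24 members tested, 0 differed between ILT3+ and ILT3- cells at an edgeR adjusted p of 0.05. Over all genes tested, 1.79% were called higher and 0.251% lower, so 0 of 24 is near the general share. All 70 members together had 12299 exon reads, which was 0.0136% to 0.042% of a library's exon reads. Summed over the members, ILT3- samples 1, 2 and 3 had 454, 153 and 134 CPM and ILT3+ samples 1, 2 and 3 had 424, 168 and 195 CPM. The groups overlapped, and both samples numbered 1 lay far above the other 4. The group means were 247 ± 180 CPM (SD, n = 3) for ILT3- and 262 ± 141 CPM for ILT3+ cells, a ratio of 1.06. Within the same sample number, the ratio of ILT3+ to ILT3- was 0.933, 1.1 and 1.46. On the log2 scale the ratio of means was 0.09, and it was 0.87 when ILT3- sample 1 was left out, -0.44 when ILT3+ sample 1 was, and 0.32 when both were.

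**Figure D1:**
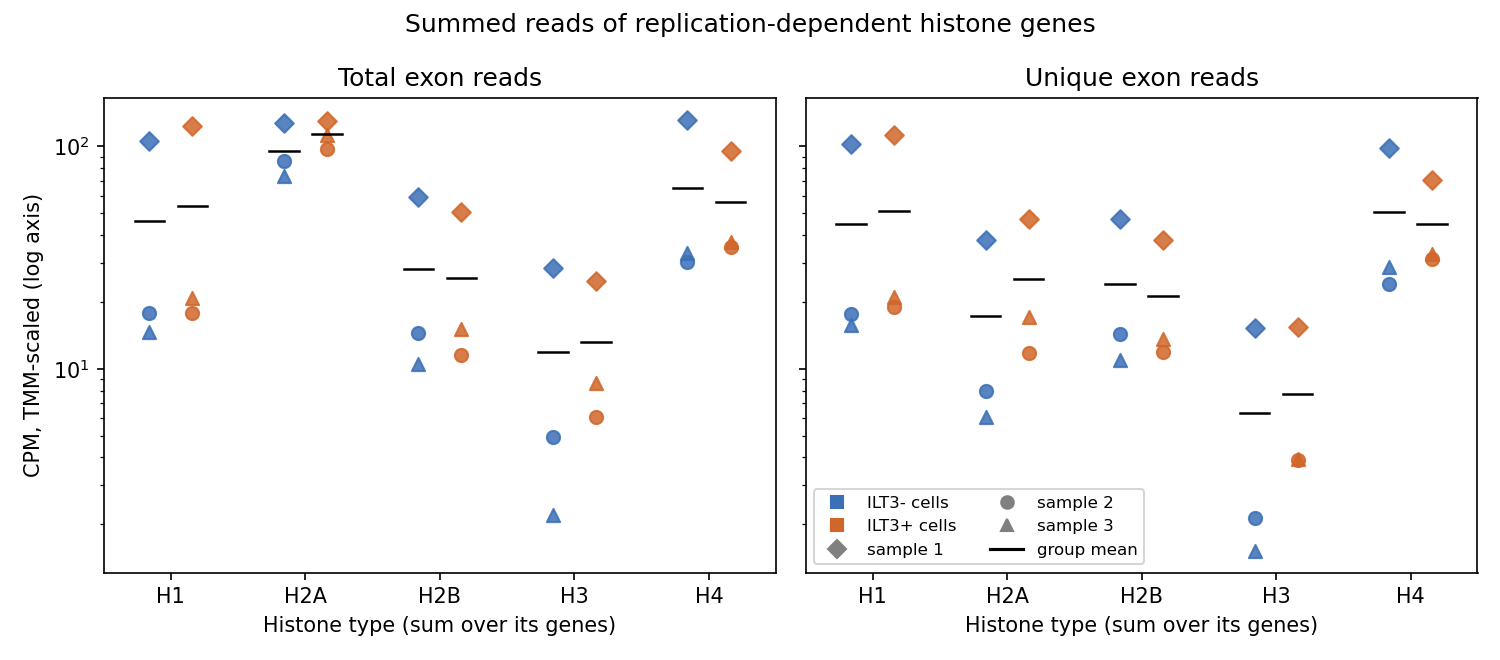
Summed CPM (log axis) of the genes of each histone type in the 6 samples, from total exon reads (left) and unique exon reads (right); bars mark group means of 3 samples. The groups overlap in every type, and both samples numbered 1 (diamonds) lie highest in each.

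Of the 70 members 24 passed the filter on low counts, which asks for enough reads in at least 3 samples, and 46 did not. Reads were 0 in all samples for Hist3h2bb-ps and for Hist1h1t, which encodes the testis form of H1, and 47 members had at least 20 reads over the 6 samples. The edgeR quasi-likelihood test called 0 of the 24 higher and 0 lower in ILT3+ cells, with 0 at an unadjusted p under 0.05. Over all 11536 genes tested, 1.79% were called higher (207 genes) and 0.251% lower (29 genes), and 1537 had an unadjusted p under 0.05. DESeq2 and limma-voom called 0 members too, and 743 and 168 of all 11536 genes. With the sample number as a block, 0 members were called, against 3.6% of all genes higher and 2.47% lower. In that fit 2 members, Hist1h2ap and Hist1h1b, had an unadjusted p under 0.05, and the share of all genes was not counted. The CPM of ILT3+ and ILT3- samples did not separate without overlap for any tested member, whereas 12.4% of all tested genes lay above and 7.83% below without overlap. Below the filter, Hist1h3d and Hist1h2an, chosen after their values were seen, did separate. Hist1h3d had 0, 0 and 1 reads in ILT3- and 10, 7 and 6 in ILT3+ samples. Hist1h2an, with 13 reads in all, ran the other way (0.333, 0.431 and 0.288 CPM in ILT3-, 0.126, 0.214 and 0.108 CPM in ILT3+ samples). The median log2 fold change of the tested members was -0.09, beside 0.00 for all genes, with 10 of 24 above 0. This balance turned with the fit: 15 of 24 were above 0 with the block (median 0.11), 16 of 24 with limma-voom (0.26), 22 of 26 tested without ILT3- sample 1 (1.07) and 10 of 24 without ILT3+ sample 1 (-0.64). Without both samples numbered 1, 18 members were tested, 0 were called and 3 had an unadjusted p under 0.05, while 20% of all genes did. Their median was then 0.24, with 11 of 18 above 0.

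**Figure D2:**
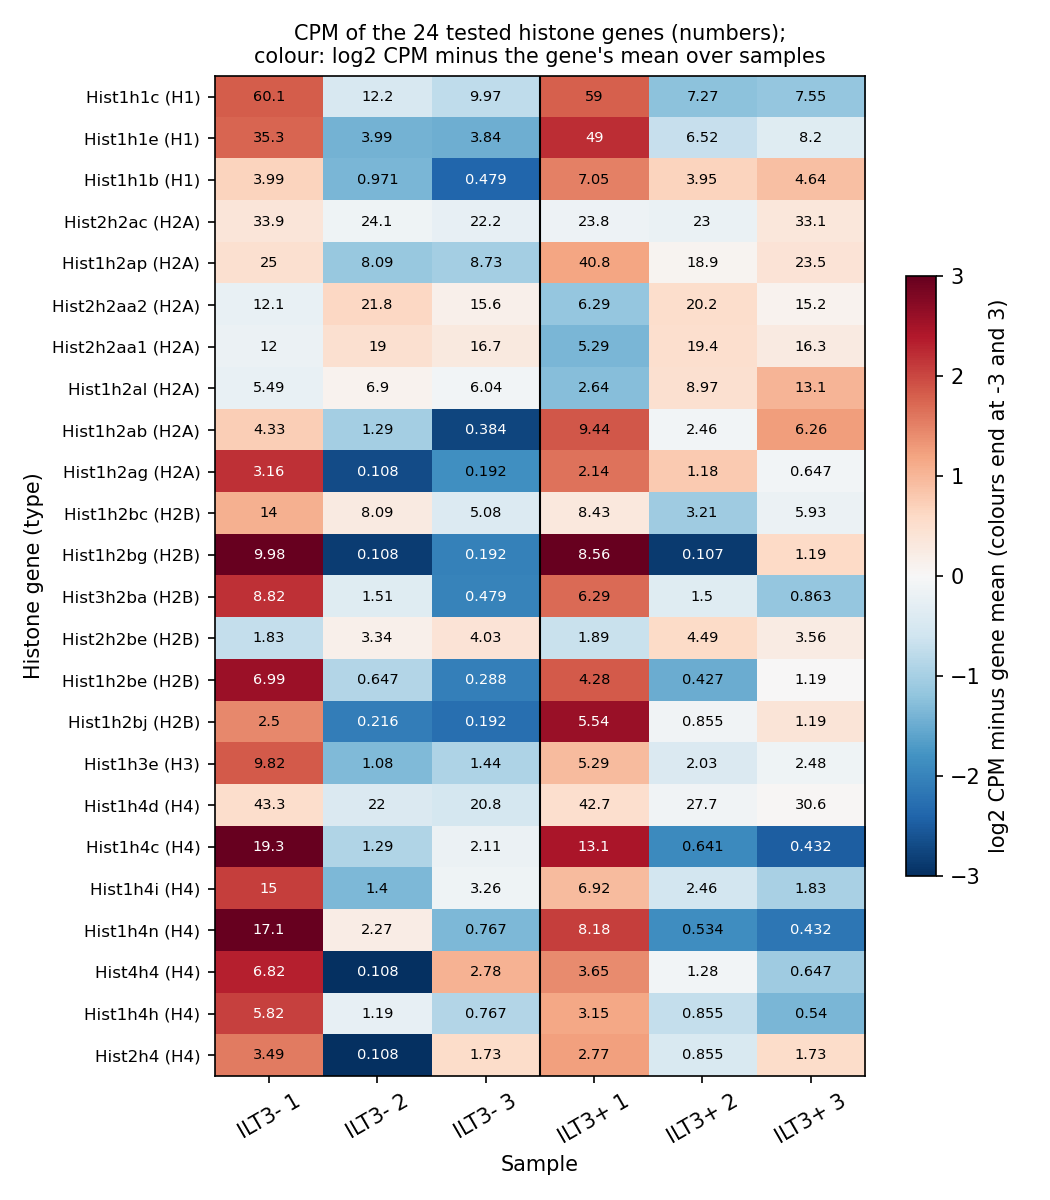
CPM of the 24 tested histone genes in the 6 samples (numbers in the cells), coloured by log2 CPM minus the gene's mean over the samples. ILT3- 1 and ILT3+ 1 are above the other 4 samples for 17 genes, and Hist2h2aa1, Hist2h2aa2, Hist1h2al and Hist2h2be run the other way.

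Linker histone H1 genes took 18.7% of the members' reads, and 78.3% of these were counted as unique by the authors. Their summed CPM was 106, 17.8 and 14.6 in ILT3- samples 1 to 3 and 123, 17.9 and 20.9 in ILT3+ samples 1 to 3. The groups overlapped, and samples numbered 1 were the highest. Hist1h1c (H1.2), on chr13:23738807-23740366, had 60.1, 12.2 and 9.97 CPM in ILT3- and 59, 7.27 and 7.55 CPM in ILT3+ samples. Its log2 fold change was -0.15 (SE 0.97, edgeR adjusted p = 0.975). It is one of the histone genes also known to give polyadenylated mRNA, and its gene model runs 839 bases past the stem-loop. Hist1h1e (H1.4) had 35.3, 3.99 and 3.84 CPM in ILT3- and 49, 6.52 and 8.2 CPM in ILT3+ samples. It was higher in the ILT3+ sample of every number, yet the spread within groups was larger than the difference (log2 0.58, SE 1.06, edgeR adjusted p = 0.89).

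Hist1h1b (H1.5) had 3.99, 0.971 and 0.479 CPM in ILT3- samples 1, 2 and 3 and 7.05, 3.95 and 4.64 CPM in ILT3+ samples 1, 2 and 3. ILT3- sample 1 alone reached into the ILT3+ range. The log2 fold change was 1.55 (SE 0.88, edgeR adjusted p = 0.526), and 1.96 with the block (edgeR adjusted p = 0.233). All of its 174 reads were unique, and none of its stretches of 50 bases occurs in another member. Hist1h1a (H1.1) had 14, 0 and 3 reads in ILT3- and 16, 0 and 0 in ILT3+ samples, and was too low to test. Hist1h1d (H1.3), chosen after its values were seen, had 29, 6 and 0 reads in ILT3- and 46, 2 and 5 in ILT3+ samples.

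H2A genes took 43.3% of the members' reads, the most of the 5 types, but only 15.5% of these were unique. A median of 73.2% of an H2A gene's stretches of 50 bases also occurs in another member, against 1.1% for H1 genes, 40.1% for H2B, 57.2% for H3 and 39.5% for H4. How the authors placed reads that match several copies is not given in the sources used here, so levels of single H2A genes are uncertain. Summed, H2A had 128, 85.9 and 73.3 CPM in ILT3- and 130, 97.1 and 113 CPM in ILT3+ samples. ILT3+ was higher in each number, by ratios of 1.02, 1.13 and 1.55, but the groups overlapped. Unique reads alone gave 37.9, 7.99 and 6.06 CPM in ILT3- and 47.3, 11.8 and 17.1 CPM in ILT3+ samples, again with overlap.

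Hist2h2ac, on chr3:96220361-96220880, was the H2A gene with most reads per length (51.3 RPKM, which is CPM divided by exon length in kb, as a mean of the 6 samples). It had 33.9, 24.1 and 22.2 CPM in ILT3- and 23.8, 23 and 33.1 CPM in ILT3+ samples. The groups covered nearly the same range (log2 fold change 0.00, SE 0.3, edgeR adjusted p = 0.998), and this was the smallest SE among the tested members. Hist1h2ap, on chr13:21833057-21833575, followed with 40.1 RPKM. Its 25, 8.09 and 8.73 CPM in ILT3- and 40.8, 18.9 and 23.5 CPM in ILT3+ samples overlapped only through ILT3- sample 1. The log2 fold change was 1.00 (SE 0.53, edgeR adjusted p = 0.484), and 1.12 with the block (edgeR adjusted p = 0.085). Of its stretches of 50 bases 93.1% occur in other members, and 25.4% of its 1035 reads were unique. Without both samples numbered 1 its adjusted p was 0.0721.

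Hist1h2ab had the largest log2 fold change of the tested members, 1.62 (SE 0.95, edgeR adjusted p = 0.55). Its levels were 4.33, 1.29 and 0.384 CPM in ILT3- and 9.44, 2.46 and 6.26 CPM in ILT3+ samples. The neighbouring copies Hist2h2aa1 and Hist2h2aa2 share 89.2% and 100% of their stretches of 50 bases with each other, and 0 of their 797 and 818 reads were unique. Antisense models overlap both genes, Gm20633 and Gm20632, and use of strand is not given. Hist2h2aa2 had 12.1, 21.8 and 15.6 CPM in ILT3- and 6.29, 20.2 and 15.2 CPM in ILT3+ samples. Hist2h2aa1 had 12, 19 and 16.7 CPM in ILT3- and 5.29, 19.4 and 16.3 CPM in ILT3+ samples. For both genes the samples numbered 1 were the lowest of their group, the reverse of the H1 genes. Hist1h2al, a processed pseudogene in GENCODE that shares 65.5% of its stretches with Hist2h2aa1 and was chosen after its values were seen, showed the same order, with 5.49, 6.9 and 6.04 CPM in ILT3- and 2.64, 8.97 and 13.1 CPM in ILT3+ samples.

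H2B genes took 10.2% of the reads, 69.6% of them unique. The type summed to 59.4, 14.5 and 10.5 CPM in ILT3- and 50.5, 11.6 and 15.1 CPM in ILT3+ samples, with full overlap of the groups. Hist1h2bc, known also in polyadenylated form, had 14, 8.09 and 5.08 CPM in ILT3- and 8.43, 3.21 and 5.93 CPM in ILT3+ samples (log2 fold change -0.62, SE 0.59, edgeR adjusted p = 0.748). Hist1h2bg had 9.98, 0.108 and 0.192 CPM in ILT3- and 8.56, 0.107 and 1.19 CPM in ILT3+ samples, so nearly all of its 143 reads came from the samples numbered 1. Its SE of 1.74 was the largest of the tested members. Hist3h2ba had 8.82, 1.51 and 0.479 CPM in ILT3- and 6.29, 1.5 and 0.863 CPM in ILT3+ samples. Hist1h2bj had 2.5, 0.216 and 0.192 CPM in ILT3- and 5.54, 0.855 and 1.19 CPM in ILT3+ samples (log2 fold change 1.43, SE 1.26, edgeR adjusted p = 0.722). The fold change was 3.54 without ILT3- sample 1 and 0.14 without ILT3+ sample 1.

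Hist2h2be, the other H2B gene known for a long polyadenylated mRNA, ran against its type. Its 2618-base model held 174 reads, all unique, at 1.83, 3.34 and 4.03 CPM in ILT3- and 1.89, 4.49 and 3.56 CPM in ILT3+ samples. Both samples numbered 1 were the lowest, and the groups did not differ beyond their spread (log2 fold change 0.11, SE 0.67, edgeR adjusted p = 0.975).

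H3 genes had the fewest reads of the 5 types, 4.7% of the members' total, and 1 of 12 passed the filter. Summed H3 was 28.5, 4.96 and 2.21 CPM in ILT3- and 24.8, 6.09 and 8.63 CPM in ILT3+ samples. The ratio of ILT3+ to ILT3- was 0.871, 1.23 and 3.91 within sample numbers 1, 2 and 3, and the log2 ratio of means was 0.15, or 1.87 without ILT3- sample 1. Hist1h3e, the tested gene, had 9.82, 1.08 and 1.44 CPM in ILT3- and 5.29, 2.03 and 2.48 CPM in ILT3+ samples (log2 fold change -0.31, SE 0.96, edgeR adjusted p = 0.941). Hist1h3a had 34, 4 and 0 reads in ILT3- and 63, 0 and 4 reads in ILT3+ samples. Hist1h3i and Hist1h3c held 80 and 56 reads in all. These 3 genes did not pass the filter, since too few samples held enough of their reads.

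H4 genes took 23.2% of the reads, 65% of them unique. Summed H4 was 132, 30.2 and 33.1 CPM in ILT3- and 95.4, 35.4 and 37.2 CPM in ILT3+ samples. ILT3+ was lower in number 1 (ratio 0.72) and higher in numbers 2 and 3 (1.17 and 1.13). Hist1h4d, on chr13:23581598-23581990, had the most reads per length of all members (79.3 RPKM) and held 54.7% of H4 reads. It had 43.3, 22 and 20.8 CPM in ILT3- and 42.7, 27.7 and 30.6 CPM in ILT3+ samples, with overlap through ILT3- sample 1 (log2 fold change 0.23, SE 0.36, edgeR adjusted p = 0.862). Hist1h4c had 19.3, 1.29 and 2.11 CPM in ILT3- and 13.1, 0.641 and 0.432 CPM in ILT3+ samples. Hist1h4n had 17.1, 2.27 and 0.767 CPM in ILT3- and 8.18, 0.534 and 0.432 CPM in ILT3+ samples. Both were lower in the ILT3+ sample of every number, and Hist1h4n had the lowest log2 fold change of the tested members (-1.13, SE 1.4, edgeR adjusted p = 0.825). Of the Hist1h4n stretches of 50 bases 83.2% occur in Hist1h4m, which was not tested. Hist1h4m had 110, 9 and 6 reads in ILT3- and 87, 6 and 7 in ILT3+ samples.

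Most tested members were highest in the samples numbered 1 of both groups. Of the 24 tested members 17 had both samples numbered 1 above the other 4 and 4 had both below, where 14.7% and 15.9% of all tested genes did. The median log2 ratio of the mean CPM of samples numbered 1 to that of the other 4 was 2.11 for the tested members and -0.01 for all tested genes. By type, both samples numbered 1 were above in 2 of 3 H1, 2 of 7 H2A, 5 of 6 H2B, 1 of 1 H3 and 7 of 7 H4 genes tested. Summed H1 was 6.44 times as high in the samples numbered 1 as in the others, H2B 4.25, H3 4.86, H4 3.35 and H2A 1.4 times. For H2A the ratio was 3.97 with unique reads.

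**Figure D3:**
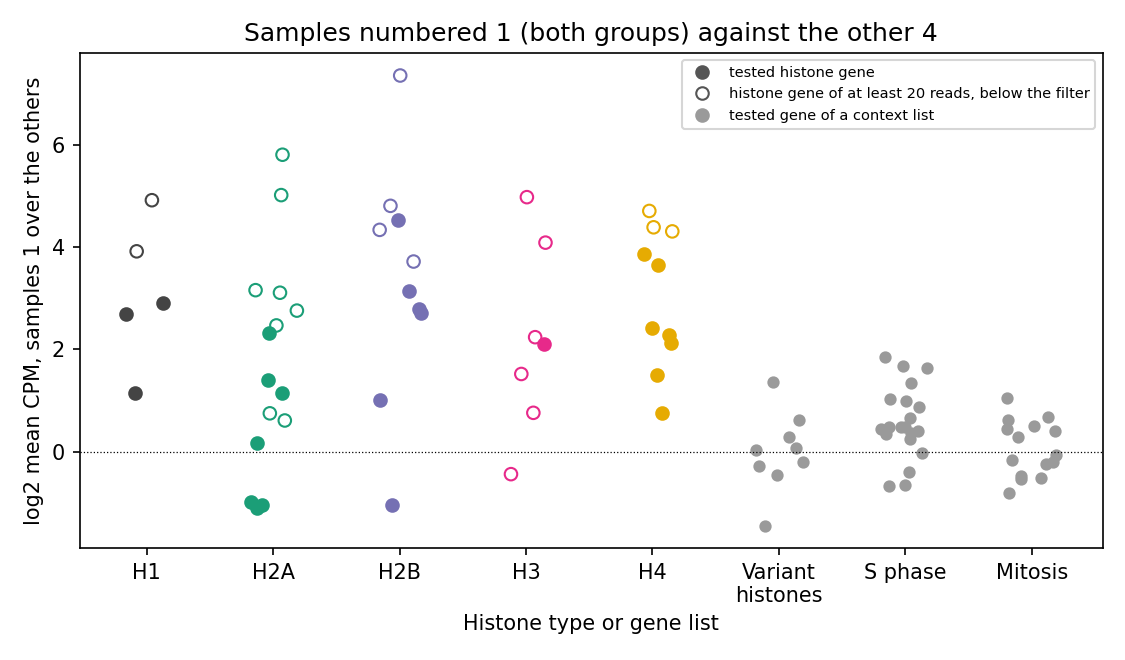
Log2 of mean CPM in the samples numbered 1 over the mean of the other 4 samples, for histone genes of at least 20 reads by type (filled: tested) and for tested genes of the variant histone, S phase and mitosis lists. All 10 H4 genes lie above 0, H2A genes lie on both sides, and the variant histones centre near 0. The cut of 20 reads sums all samples, so a histone gene can pass it through the samples numbered 1 alone.

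Among the 47 members with at least 20 reads, 34 (72.3%) had both samples numbered 1 on top, among them 10 of 10 H4 and 9 of 10 H2B genes. This cut sums the reads of all samples, so a gene can pass it through the samples numbered 1 alone. These shares, and those by model end below, are raised by that choice, and the share of all genes under the same cut was not counted. Some of the 47 members hardly gave reads outside the samples numbered 1. Hist2h2bb, chosen after its values were seen like the next 2 genes, had 33, 0 and 0 reads in ILT3- and 27, 0 and 1 in ILT3+ samples. Hist1h2ac had 49, 0 and 2 reads in ILT3- and 50, 2 and 1 in ILT3+ samples. Hist3h2a had 48, 1 and 4 reads in ILT3- and 111, 3 and 5 in ILT3+ samples. Of its 172 reads 0% were unique, and its model overlaps Trim17 on the same strand. Both samples numbered 1 were on top in 14 of 16 genes whose model runs over 100 bases past the stem-loop, in 9 of 15 whose model ends within 100 bases of it, and in 11 of 16 with no stem-loop in the model. Summed over the 45 members with both samples numbered 1 on top, which that order chose, the level was 374, 70.5 and 66.6 CPM in ILT3- and 358, 81.2 and 96.1 CPM in ILT3+ samples. The other 25 summed to 80.4, 82.7 and 67.1 CPM in ILT3- and 65.9, 87 and 99.2 CPM in ILT3+ samples.

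The unique share of histone reads was 53.1% and 54.8% in ILT3- and ILT3+ samples numbered 1 and 35% to 38.7% in the others. It comes from the same reads as the histone levels and is not a separate measure. Other measures of the same samples are given next. Some moved with the samples numbered 1 in both groups and others did not, and their part in the histone levels was not tested. Mitochondrial ribosomal RNA took 2.96% and 2.27% of gene reads in the samples numbered 1 and 1.13% to 1.66% in the others. A pair of other RNAs without poly(A) tails were read after their values were seen. Rpph1 had 4.39, 4.2 and 2.05 CPM of gene reads in ILT3- and 5.66, 1.52 and 1.59 in ILT3+ samples, with both samples numbered 1 above the other 4. Rn7sk had 31.1, 45.6 and 22.7 CPM in ILT3- and 21.5, 23.7 and 12 in ILT3+ samples, with sample 2 the highest of each group. The monocyte and macrophage list was at 865 CPM in ILT3+ sample 1 and at 23.6 CPM in ILT3- sample 1. The erythroid list was at 272 CPM in the former and 6.99 CPM in the latter. The 20 S phase genes together had 1360.3, 1357.5 and 1424 CPM in ILT3- samples 1, 2 and 3, and 2663.8, 1813.4 and 1809.1 CPM in ILT3+ samples 1, 2 and 3. Both samples numbered 1 were above the other 4 for 6 of these 20 genes and below for 1, against 14.7% and 15.9% of all tested genes. The list's median log2 ratio of samples numbered 1 to the others was 0.48, against -0.01 for all tested genes.

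H2A and H2B genes often lie head to head and share the DNA between their starts. In 14 places a member on the minus strand began under 400 bases from one on the plus strand, and all 14 pairs joined an H2A to an H2B gene. Per length, the H2A gene was the higher one in 9 and the H2B gene in 4 of the 13 pairs with a length for both, as a mean of the 6 samples. In the samples numbered 1 alone the counts were 8 and 5, in the other 4 samples 10 and 3, and the order differed between these sets in 4 pairs. Many partners had few reads, among them most pairs whose order differed. In the other 4 samples Hist1h2aa and Hist1h2ba had 1 and 1 reads, Hist1h2ah and Hist1h2bk 4 and 3, and Hist1h2an and Hist1h2bp 10 and 2. Hist2h2ac stood at 51.3 RPKM and Hist2h2be, 240 bases away behind the promoter shown above, at 1.22 RPKM. Of their reads 10.5% and 100% were unique, and their models hold 520 and 2618 bases. Hist1h2ap stood at 40.1 RPKM with 1035 reads and Hist1h2br at 0.0806 RPKM with 8 reads. Of these reads 25.4% and 0% were unique, over models of 519 and 2212 bases. The size of these differences is therefore uncertain. In the pair of Hist1h2ae and Hist1h2bg the order turned: the levels were 9.6 and 15 RPKM in the samples numbered 1 but 1.11 and 0.645 RPKM in the others, from 30 and 15 reads. Hist1h2bc, at 10.1 RPKM, was above its partner Hist1h2ac, at 1 RPKM. The testis pair Hist1h2aa and Hist1h2ba had 2 and 1 reads. The pairs were chosen by position and those named here after their values were seen.

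**Figure D4:**
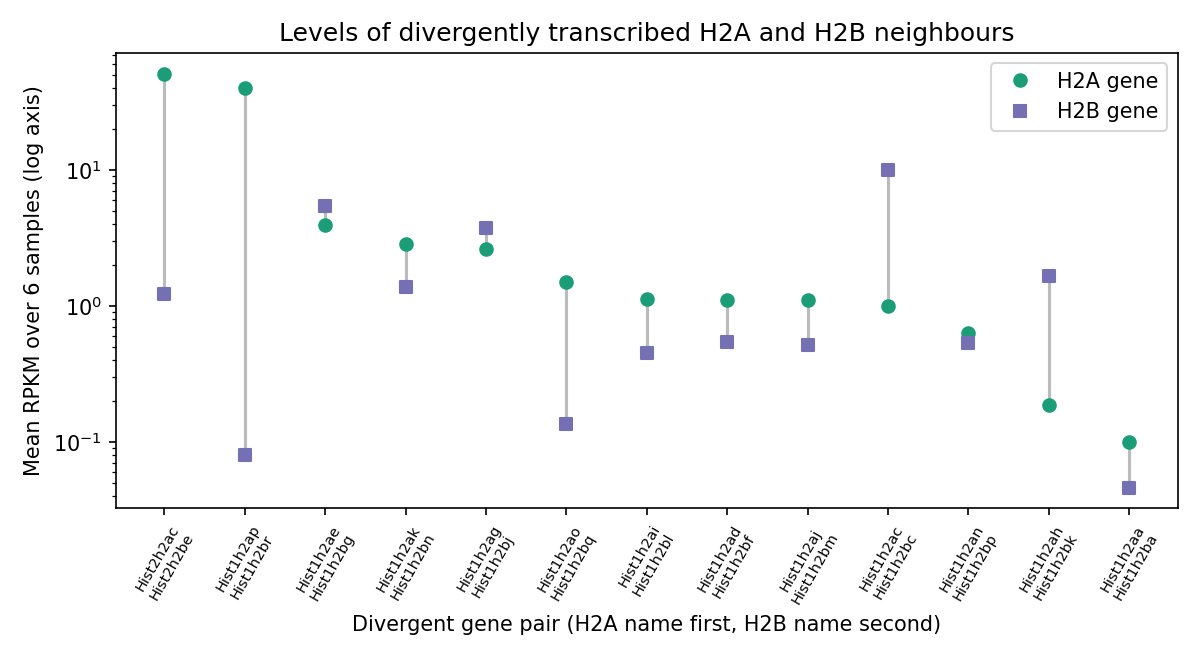
Mean RPKM over the 6 samples (log axis) of the H2A gene (circle) and the H2B gene (square) of 13 divergent pairs, ordered by the H2A level. The H2A gene is higher in 9 pairs. Between the samples numbered 1 and the others 4 of 13 pairs change order, most of them with few reads. The gap is widest for Hist1h2ap and Hist1h2br, of whose reads 25.4% and 0% were unique.

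Genes that act on histone mRNA were examined beside the members. Of 20 genes of histone mRNA processing 17 were tested and edgeR called 0 (1, Lsm11, at an unadjusted p under 0.05; DESeq2 called this gene alone, limma-voom 0). Slbp, which encodes the stem-loop binding protein, had 73.4, 87.8 and 119 CPM in ILT3- and 135, 140 and 122 CPM in ILT3+ samples. The groups did not overlap, yet the difference did not pass the test (log2 fold change 0.50, SE 0.22, edgeR adjusted p = 0.385). Lsm11, a protein of the U7 particle chosen after its values were seen, had 7.82, 13.2 and 11.7 CPM in ILT3- and 3.78, 3.85 and 3.78 CPM in ILT3+ samples (log2 fold change -1.52, SE 0.46, edgeR adjusted p = 0.185). Srrt, the most abundant of the list, differed by 0.09 on the log2 scale. Of 9 transcription genes 0 were called by edgeR, DESeq2 or limma-voom, and 0 had an unadjusted edgeR p under 0.05. The log2 fold change was -0.10 for Npat and 0.50 for Cdk2, which activates NPAT. Of 16 histone chaperones tested, edgeR called 0 (1, Asf1b, at an unadjusted p under 0.05; DESeq2 called this gene alone, limma-voom 0). Asf1b, which hands H3 and H4 to assembly factors, had a log2 fold change of 1.13 (SE 0.27, edgeR adjusted p = 0.0882). Rbbp4, the most abundant, had a log2 fold change of -0.03.

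**Figure D5:**
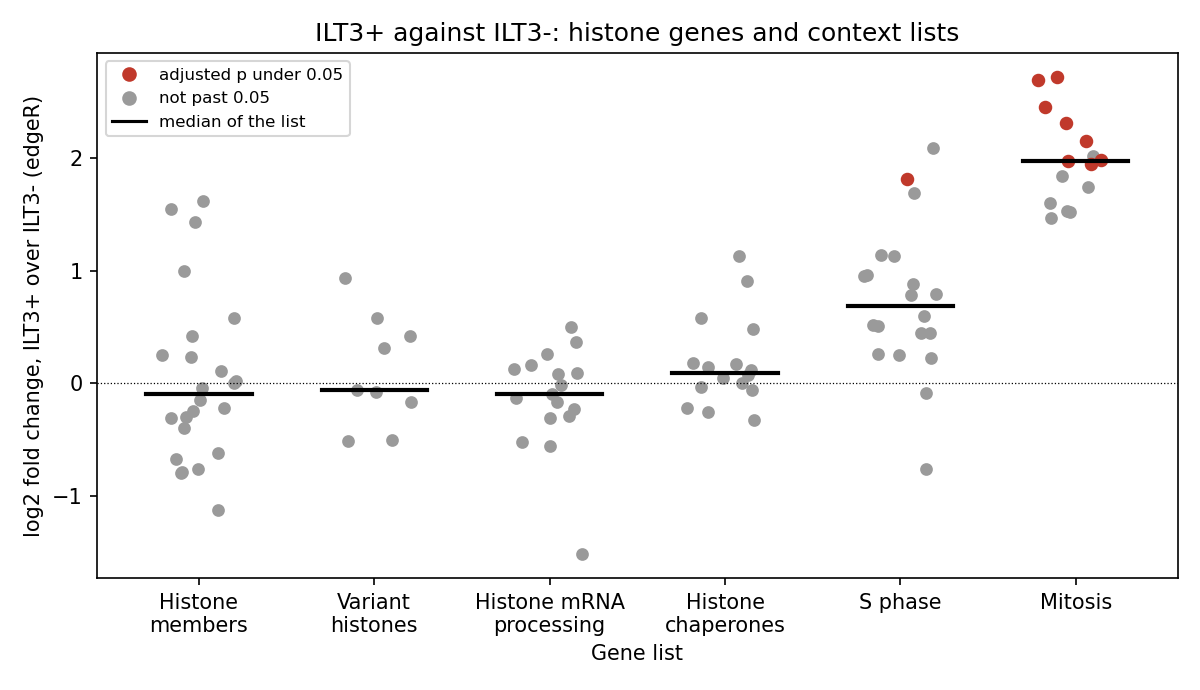
Log2 fold change of ILT3+ over ILT3- (edgeR) for the tested histone members and 5 context lists; red points passed an adjusted p of 0.05 and bars mark list medians. The members centre at -0.09 with 0 called (0.11 with the block, 0.26 with limma-voom), and all 15 mitosis genes lie above 1.

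Of 15 mitosis genes edgeR called 8 higher, against 1.79% of all genes, and for all 15 the ILT3+ samples lay above the ILT3- samples without overlap, against 12.4% of all genes. The list's median log2 fold change was 1.97. Mki67, the proliferation marker Ki-67, had 29.8, 22.3 and 12.3 CPM in ILT3- and 96.5, 85.3 and 71.1 CPM in ILT3+ samples (log2 fold change 1.98, SE 0.34, edgeR adjusted p = 0.0311). Bub1b, a spindle checkpoint kinase, Ccnb1, cyclin B1, and Tpx2, a spindle factor, rose by 2.72, 2.31 and 2.45 on the log2 scale (edgeR adjusted p = 0.0268, 0.0269 and 0.029). Top2a, the most abundant, had a log2 fold change of 1.60 (edgeR adjusted p = 0.109). The number of calls was 0 without any 1 of the 4 samples numbered 2 or 3, 6 without ILT3- sample 1, 2 without ILT3+ sample 1 and 13 with the block. The fold changes stayed about as large: without ILT3- sample 2, where 0 were called, they were 2.01 for Mki67, 2.41 for Ccnb1 and 2.83 for Bub1b on the log2 scale.

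Markers of other cell types differed between the same groups, and their part in the mitosis and S phase values was not tested. The dendritic cell list summed to 246, 239 and 212 CPM in ILT3- and 3675.9, 2399 and 2274.1 CPM in ILT3+ samples. This sum is carried by Cd74 and the MHC class II genes H2-Aa, H2-Ab1 and H2-Eb1, which other antigen-presenting cells express too. Of the list's 7 tested genes 5 were called higher, against 1.79% of all genes, and Clec9a was at 0 in all samples. Of 4 tested erythroid genes 2 were called higher, against 1.79% of all genes. All 4 lay above without overlap, against 12.4% of all genes. The B cell list summed to 42.9, 22 and 19.4 CPM in ILT3- and 86.1, 43.5 and 40.5 CPM in ILT3+ samples. The NK cell list summed to 9.98, 1.83 and 0.384 CPM in ILT3- and 50.2, 4.59 and 3.99 CPM in ILT3+ samples. Of these lists 4 B cell genes and 1 NK cell gene were tested. In each list edgeR called 0 genes and DESeq2 called 1, where DESeq2 called 743 of all 11536 genes. The plasma cell list, with Tnfrsf17 at 0, overlapped between the groups (155 to 418 CPM).

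Of 20 S phase genes, whose expression normally coincides with that of the histone genes, edgeR called 1 higher and the block 6. Of all genes tested, 1.79% and 3.6% were called higher by these fits. The called gene was Rrm2, the small subunit of ribonucleotide reductase, with 23.6, 29.3 and 21.9 CPM in ILT3- and 113, 75.9 and 74 CPM in ILT3+ samples (log2 fold change 1.81, SE 0.26, edgeR adjusted p = 0.0217). The list's median was 0.69, with 18 of 20 above 0, against 50.1% of all genes. For 8 of the 20 the ILT3+ samples lay above the ILT3- samples without overlap, against 12.4% of all genes. An unadjusted edgeR p under 0.05 was found for 6 of the 20, and for 1537 of all 11536 genes. Mcm6, the most abundant, had a log2 fold change of 0.52 (edgeR adjusted p = 0.569). The Rrm2 call was lost without any 1 of the 4 samples numbered 2 or 3. Summed over the 20 genes, the ratio of ILT3+ to ILT3- was 1.96, 1.34 and 1.27 in numbers 1, 2 and 3, where that of the histone members was 0.933, 1.1 and 1.46. The difference between the lists was not tested.

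Variant histone genes, which are not confined to S phase, covered a wide range of levels. H2afz, H3f3a and H3f3b had 363 to 2678.3 CPM, whereas H2afx (28 to 51.8 CPM), H2afj (24.3 to 56.3) and Cenpa (34.1 to 53.6) lay near the most abundant members, and H2afy2, H2afy3 and H1fx had 4, 0 and 0 reads. Of 12 genes 9 were tested and edgeR called 0 (1, H2afx, had an unadjusted p under 0.05; DESeq2 and limma-voom called 0). They summed to 2693.7, 3231.7 and 3497.2 CPM in ILT3- and 2649.5, 4274 and 3541.1 CPM in ILT3+ samples. H2afz, which encodes H2A.Z and had only 4.61% unique reads, was lowest in the samples numbered 1, with 663, 1614.4 and 1698.8 CPM in ILT3- and 776, 2678.3 and 1873.6 CPM in ILT3+ samples (log2 fold change 0.42, SE 0.49, edgeR adjusted p = 0.809). H1f0, the H1.0 gene of resting cells chosen after its values were seen, was highest in them, with 56.4, 9.49 and 12.3 CPM in ILT3- and 70.3, 40.5 and 36.6 CPM in ILT3+ samples (log2 fold change 0.93, SE 0.66, edgeR adjusted p = 0.639). Without both samples numbered 1, H1f0 was the 1 variant histone gene called higher (log2 fold change 1.80, SE 0.31, edgeR adjusted p = 0.0104).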

How the data were processed

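Each of the 6 samples has 1 deposited table of raw read counts per gene (unique and total, for gene, exon and intron), per the file headers. Gene and exon lengths in bases are in the same deposited tables. Per the submitters' processing notes the build was GRCm38. For the aligner, counter, annotation, strand and the meaning of unique, the entry is: not given in the sources used here. SmartSeq V2 and Nextera XT kits were used on RNA of integrity above 8, per the labels' protocols.

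Members and lists were chosen with earlier results of these data known. Total exon reads of all genes were tested with edgeR 4.0.16 in R 4.3.3: TMM, default filter (minimum count 10, total 15), robust quasi-likelihood fit on group, Benjamini-Hochberg adjustment at 0.05 over 11536 genes. SE is the log2 fold change over the root of F. Alternatives used other read columns, other scaling, no filter, DESeq2 1.42.0, limma-voom (limma 3.58.1), the replicate block and fewer samples. The script was tested on simulated data. No test was run on sums.

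Same-numbered samples deviated together from their group means (r = 0.41, 0.28 and 0.292, each over the bound of 0.1), so a replicate block was taken as a pairing. The labels do not state it, and crossed samples 2 and 3 passed the bound as well (0.127 and 0.18). No library repeated another: chi-square over degrees of freedom was 16.4 to 111 between pairs.

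Named members were the 4 with most reads per length in each type, the largest and smallest fold change per type, and 3 genes known in polyadenylated form. Up to 4 called genes and the most abundant one were named per list, besides Lilrb4, Mki67, Slbp and Npat. Asf1b, H2afx, other variant histone genes and cell type markers were named after their values were seen. A floor of 3 reads covers counting error only. Of the listed symbols, Symplk, Jchain and Adgre1 were not matched. Transcripts are from GENCODE M21 and promoters from RefSeq.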

Additional observations from a re-analysis of the deposited data

How the results depend on the processing

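The count of histone members called was 0 in both directions under all 16 alternatives, and among all genes it moved. With DESeq2, the replicate block and without both samples numbered 1, genes called higher were 547, 415 and 577 (207 as reported), and genes called lower were 196, 285 and 197 (29 as reported). Total gene reads gave 47 and unique gene reads 57 lower. Leaving out 1 sample gave 22 to 221 higher and 0 to 34 lower. S phase calls (1) became 2 with unique gene reads, 3 with DESeq2, 6 with the block, 2 without both samples numbered 1 and 0 to 1 leaving out 1 sample. Mitosis calls (8) became 15 with DESeq2, 5 with limma-voom, 13 with the block, 14 without both samples numbered 1 and 0 to 6 leaving out 1 sample. Variant histone calls (0) became 1 without both samples numbered 1 and 0 to 1 leaving out 1 sample, and chaperone calls (0) became 1 with DESeq2. The H2A log2 ratio of 0.25 became 0.6 with unique gene reads. Leaving out 1 sample, the log2 ratio ranged from -0.44 to 0.87 for all members, -1.25 to 1.73 for H1, 0.08 to 0.51 for H2A, -1.07 to 1.04 for H2B, -0.69 to 1.87 for H3 and -0.85 to 0.82 for H4. The causes were not tested, beyond the fewer samples of some alternatives.

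Of 483 values of named genes 36 reversed, 34 of them in 11 members with fold changes that had not passed the test. The block, taken as a pairing, moved Hist2h2ac from -0.00 to 0.00, Hist1h2bg from -0.04 to 0.72, Hist3h2ba from -0.30 to 0.05 and Hist1h3e from -0.31 to 0.24, and changed no member's call. Without both samples numbered 1, Hist2h2ac was 0.26, Hist3h2ba 0.22 and Hist1h3e 0.81. With limma-voom Hist2h2ac was 0.05, Hist1h2bg 0.99, Hist3h2ba 0.33 and Hist1h3e 0.46. Total gene reads gave 0.02 for Hist2h2ac and 0.01 for Hist1h2bg. Library totals alone gave 0.08 for Hist2h2ac, 0.11 for Hist1h2bg and 0.03 for Rbbp4. Leaving out 1 sample, the log2 fold change ranged from -0.95 to 2.43 for Hist1h1e, -1.88 to 1.14 for Hist1h1c, -0.20 to 0.20 for Hist2h2ac, -0.62 to 0.10 for Hist2h2aa2, -0.56 to 0.17 for Hist2h2aa1, -2.35 to 4.31 for Hist1h2bg, -1.58 to 1.52 for Hist3h2ba, -0.84 to 1.36 for Hist1h3e, -3.77 to 1.45 for Hist1h4c, -3.74 to 0.99 for Hist1h4n, -0.18 to 0.38 for Hist2h2be and -0.01 to 0.78 for H2afz. Without reversing, it ranged from 0.14 to 3.54 for Hist1h2bj, 1.08 to 2.82 for Hist1h1b, 1.11 to 2.84 for Hist1h2ab and 0.62 to 1.72 for Hist1h2ap. The highest value came without ILT3- sample 1 and the lowest without ILT3+ sample 1 for Hist1h1e, Hist1h1c, Hist1h2bg, Hist3h2ba, Hist1h3e, Hist1h4c and Hist1h4n.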
